A study of Mus musculus with 8 samples.

Results

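The genes described here encode 6 chains of the receptors for IL-12, IL-23, IL-27 and IL-6: *Il12rb1*, *Il12rb2*, *Il23r*, *Il27ra*, *Il6ra* and *Il6st*. They were taken by symbol from the 23284 genes listed in the expression files, and all 6 were among the 11198 genes tested. RNA sequencing covered 4 groups with 2 libraries each, namely naive CD4 T cells and the Th1, Th2 and Th17 effector subsets, all from DO11.10 Tg mice, which carry a transgenic TCR for an OVA peptide. The methods give the age of the mice used as 6 to 12 weeks. Naive cells were CD44low CD62Lhi CD4 T cells sorted from spleen and were not cultured. Effector cells were cultured for 6 days with OVA peptide and irradiated splenocytes depleted of T cells. In Th1 cultures, 100 U/ml of IL-12 and 30 U/ml of IL-2 were combined with 1 μg/ml of an antibody to IL-4. In Th2 cultures, 100 U/ml of IL-4 and 30 U/ml of IL-2 were combined with 10 μg/ml of an antibody to IFNγ. In Th17 cultures, 10 ng/ml each of IL-6, IL-23 and IL-1β were combined with 10 μg/ml of each antibody and no IL-2 was listed. No group was cultured with antigen and without polarizing cytokines, so stimulation, time in culture and the cytokine mixture cannot be told apart in a comparison with naive cells. The labels do not say whether the 2 libraries of a group came from separate mice or cultures, so the p-values measure only the spread between these libraries.

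These receptors share chains. IL-12 is bound by IL-12Rβ1 (*Il12rb1*) with IL-12Rβ2 (*Il12rb2*) and signals through JAK2, TYK2 and STAT4 in developing Th1 cells, whereas IL-23 is bound by IL-12Rβ1 with IL-23R (*Il23r*) and signals largely through STAT3 in Th17 cells. IL-6 is bound by IL-6Rα (*Il6ra*), which then recruits gp130 (*Il6st*), the signal-transducing chain of the whole IL-6 family. IL-27 is bound by WSX-1 (*Il27ra*) together with the same gp130. A cell's response to each cytokine is therefore known to depend on a pair of chains, and the comparisons below ask how the mRNA of each chain, and of each pair, stood in cells given IL-12, in cells given IL-6 and IL-23, and in cells given neither.

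In mm10, *Il12rb2* lies on chromosome 6 from 67292018 to 67376137 and *Il23r*, its neighbor on the same minus strand, from 67422932 to 67491855. The gap between them is 46794 bases and holds 4 processed pseudogenes in GENCODE M21. *Il12rb1* and *Il27ra* both lie on chromosome 8, from 70808449 to 70821423 on the plus strand and from 84030286 to 84042575 on the minus strand. *Il6ra* lies on chromosome 3 from 89869324 to 89913162 on the minus strand and *Il6st* on chromosome 13 from 112464070 to 112506860 on the plus strand.

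The 250 bases before the annotated start of *Il12rb2* and *Il23r* are printed because these neighbors, the specific chains of the IL-12 and IL-23 receptors, were the members that differed in all 3 comparisons between effector subsets. Both are from RefSeq on GRCm38.p6, read 5′ to 3′ on the minus strand, chr6:67376189-67376438 for *Il12rb2* and chr6:67491856-67492105 for *Il23r*, and the capitals mark matches to the motifs described after them.
Il12rb2: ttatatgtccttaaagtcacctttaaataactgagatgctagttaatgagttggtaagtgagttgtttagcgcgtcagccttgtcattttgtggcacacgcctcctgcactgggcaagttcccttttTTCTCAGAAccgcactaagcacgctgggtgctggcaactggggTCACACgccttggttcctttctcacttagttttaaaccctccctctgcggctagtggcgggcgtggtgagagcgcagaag
Il23r: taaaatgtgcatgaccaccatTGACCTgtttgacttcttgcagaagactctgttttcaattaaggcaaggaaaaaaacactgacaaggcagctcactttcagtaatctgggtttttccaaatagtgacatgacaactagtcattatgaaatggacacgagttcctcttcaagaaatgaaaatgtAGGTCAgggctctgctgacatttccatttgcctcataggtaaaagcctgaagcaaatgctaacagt

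In the *Il12rb2* promoter the capitals mark the STAT pattern TTCNNNGAA, matched by TTCTCAGAA at -123 to -115 from the start, and the T-box half-site TCACAC at -80 to -75. In the *Il23r* promoter they mark the nuclear receptor half-site AGGTCA, at -66 to -61 on the printed strand and as its reverse complement TGACCT at -229 to -224. Both strands were searched, and no match overlapped another. Among 32817 promoter windows of the same length, 7.01% held the STAT pattern, 12.3% the T-box half-site and 14% the nuclear receptor half-site, so none of these matches is rare. The AP-1 pattern TGANTCA, held by 6.75% of windows, matched none of the 4 members in the promoter table. The table covered *Il12rb2*, *Il23r*, *Il6ra* and *Il6st*, and the windows of *Il6ra* and *Il6st* held none of the 4 patterns. Their GC content was 65.2% and 66%, against 50% for *Il12rb2*, 39.6% for *Il23r* and a median of 52.4% over all windows. A match describes the letters only and does not show binding.

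Expression was deposited as FPKM, which counts sequenced fragments relative to exon length and to all fragments mapped. The fragments implied by the deposited 95% intervals summed to between 14463466 and 21058286 per library, and intervals of this kind cover counting error only. T cell marker genes summed to 879 to 1567 FPKM in every library, and naive markers to 1783 to 1798 in naive libraries against 128 to 441 in effector libraries. CD8 T cell markers, almost entirely *Cd8b1*, summed to 54.5 to 93.4 FPKM in naive libraries and 8.94 to 13 in effector libraries. Regulatory T cell markers summed to 8.21 to 15.4 in naive libraries, 2.69 to 2.93 in Th1, 0.572 to 0.887 in Th2 and 4.31 to 7.33 in Th17. The 5 B cell markers summed to 2.33 to 12.2 FPKM, the 6 listed myeloid markers to 10.2 to 34.4, the 5 dendritic cell markers to 0.728 to 3.9 and the 4 NK cell markers to 0.108 to 1.51. The dendritic sum was 0.728 to 0.815 in naive, 1.22 to 1.36 in Th1 and 2.72 to 2.82 in Th2 libraries. It was highest in Th17, at 3.88 to 3.9. The NK sum was 0.175 to 0.442, 0.776 to 1.1, 0.108 to 0.132 and 1.08 to 1.51 in naive, Th1, Th2 and Th17. The 3 activation markers summed to 19.8 to 22 FPKM in naive libraries and 722 to 978 in effector libraries. The neutrophil precursor genes *Mpo* and *Elane* were at 2.46 to 4.89 and 2.59 to 3.71 FPKM in replicate 1 of each effector group and at no more than 0.106 in replicate 2. Of the other neutrophil markers in the files, *S100a9* and *Camp* were at 0 in every effector library. *S100a8* was at no more than 0.663 in any library. The part of these other cells in the results that follow was not tested.

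Th1 and Th17 cells differed from naive cells in the same direction for each of the 6 genes. *Il12rb1*, *Il12rb2* and *Il23r* were higher than in naive cells, and *Il27ra*, *Il6ra* and *Il6st* were lower. Th2 cells had the same pattern apart from *Il23r*, listed at 0 in both naive and both Th2 libraries. The test was limma on log2(FPKM + 1) with Benjamini-Hochberg adjustment over all genes tested, and a call is an adjusted p under 0.05. Against naive cells, 3 members were called higher and 3 lower in Th1, where 33.8% of all genes tested were called higher and 33.5% lower. In Th2, 2 were higher and 3 lower, against 31.8% and 38.7% of all genes. In Th17, 3 were higher and 3 lower, against 37.5% and 29.8%. With so many genes called in each direction, nothing is drawn from the number of members called, and their sizes are described gene by gene. In bulk RNA a lower level can come from fewer cells that express a gene or from less of its mRNA per cell, and these cannot be told apart. *Cd8b1* was also higher in naive cells, at 90.5 and 52.8 FPKM against 8.77 to 12.9 in effector libraries. From naive replicate 1 to replicate 2 it fell, while *Il27ra* (114 and 137), *Il6ra* (52.3 and 73.4) and *Il6st* (31.1 and 42.9) rose. The regulatory T cell markers *Foxp3* (6.68 and 12.8) and *Ikzf2* (1.53 and 2.55) rose as well. The part of CD8 and regulatory T cells in the 3 genes higher in naive cells was not tested.

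Between effector subsets, 2 members (*Il12rb2*, *Il23r*) were called higher in Th1 than in Th2 and 0 lower, where 27.4% of all genes were called higher and 16.9% lower. At an unadjusted p under 0.05 (limma), *Il12rb1* was also higher and *Il6ra* lower, and both were called once the replicate block was added, for 4 of the 6, in a fit that also called more of all genes (33.1% higher and 20.3% lower). Th17 cells were called higher than Th2 cells for 3 members and lower for 1, against 31.7% and 12% of all genes. Th1 cells were called higher than Th17 cells for 2 members and lower for 2, against 9.17% and 16%. With the block these became 3 and 3, against 12.3% and 20.8%. Without scaling, 61.8%, 72.6% and 36.5% of all calls were in the higher direction in these 3 comparisons. Median scaling gave 52.8%, 53.3% and 48.1%, and quantile normalization 50.9%, 50.7% and 49.7%. For Th17 against naive cells the same share was 55.7% without scaling and 44.2% with quantile normalization. The median log2 difference of all genes was 0.108 for Th1 against Th2, 0.184 for Th17 against Th2 and -0.112 for Th2 against naive cells, and differences of the members are to be read relative to these. Quantile normalization put it at -0.131, -0.127 and -0.115 for Th1, Th2 and Th17 against naive cells.

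**Figure D1:**
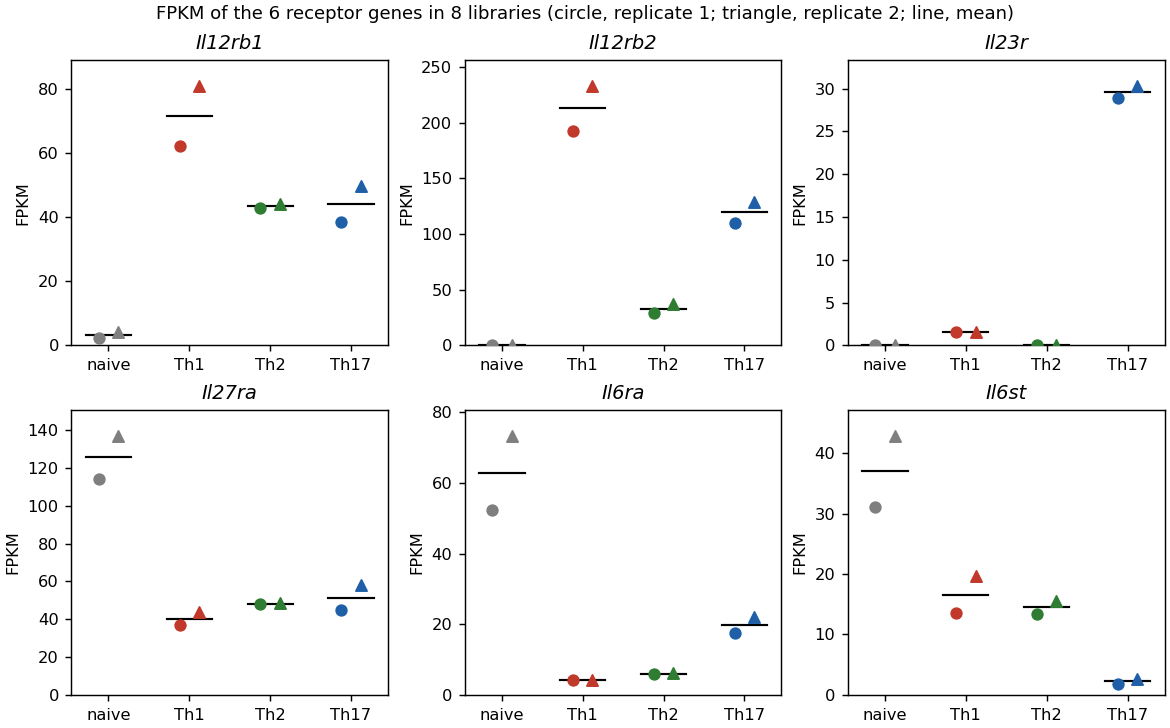
FPKM (linear axis from 0, one scale per gene) of the 6 receptor genes in each of the 8 libraries, by group, with replicate 1 as a circle, replicate 2 as a triangle and the group mean as a line. *Il12rb2* peaked in Th1 at 193 and 233, *Il23r* in Th17 at 28.9 and 30.3, and *Il27ra*, *Il6ra* and *Il6st* in naive cells, while *Il6st* was lowest in Th17 at 1.82 and 2.69.

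*Il12rb1*, the chain shared by the IL-12 and IL-23 receptors, was low in naive cells and higher in all 3 subsets. Its FPKM was 2.16 and 4.1 for naive cells, 62.1 and 80.8 in Th1, 38.5 and 49.5 in Th17, and 42.8 and 44.1 in Th2. All effector libraries lay far above both naive libraries, and both Th1 libraries lay above every other effector library. On log2(FPKM + 1), it exceeded naive cells by 4.16 in Th1 (SE 0.25, adjusted p = 9.31e-06, limma), 3.47 in Th2 (adjusted p = 1.89e-05) and 3.48 in Th17 (adjusted p = 2e-05), the ratios of mean FPKM being 22.8, 13.9 and 14.1. Th1 exceeded Th2 by 0.69, with a 95% interval of 0.11 to 1.28, and Th17 by 0.69, with an interval of 0.10 to 1.27. Neither passed the threshold over all genes (adjusted p = 0.0578 and 0.0891, limma), and both passed with the replicate block (adjusted p = 0.00974 and 0.0161). Th17 and Th2 cells were 0.01 apart, with an interval of -0.58 to 0.59.

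*Il12rb2*, the chain that makes the receptor specific for IL-12, was the highest of the 6 in Th1 and Th17 cells. Its FPKM was 0.509 and 0.768 in naive cells, on only 32 and 48 implied fragments, then 193 and 233 in Th1, 110 and 129 in Th17, and 29.1 and 37 in Th2. No libraries of different groups overlapped, and the order was Th1, Th17, Th2, naive. It exceeded naive cells by 7.03 in Th1, by 4.37 in Th2 and by 6.20 in Th17 on the log2 scale (SE 0.16 each, adjusted p = 2.47e-07, 9.43e-07 and 2.94e-07, limma). As ratios of mean FPKM these were 333, 51.8 and 187. In Th1 cells the gene stood above 98.4% and 98.7% of all genes listed.

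Each step in the order of *Il12rb2* passed the test. Th1 exceeded Th2 by 2.65 (adjusted p = 4.04e-05, limma), a ratio of mean FPKM of 6.44. Th17 exceeded Th2 by 1.83 (adjusted p = 0.000313, limma), a ratio of 3.61. Neither culture was given IL-12 and both were given anti-IFNγ antibody. They differed in IL-2, IL-4, IL-6, IL-23, IL-1β and anti-IL-4 antibody, whose parts cannot be told apart. Th1 exceeded Th17 by 0.83 (adjusted p = 0.0115, ratio 1.78), the smallest step. Without Th1 replicate 2 it was 0.69 (adjusted p = 0.0739) and without Th17 replicate 1 it was 0.72 (adjusted p = 0.0721), each leaving 1 library in a group, and with the replicate block the adjusted p was 0.000484.

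The exons of *Il12rb2* in GENCODE M21 share 1519 of 3794 bases, 40%, with *Serbp1*, an mRNA-binding protein gene on the opposite strand. The methods name a kit that does not keep strand and the labels a stranded one, so reads of the pair may not be separable. *Serbp1* was at 37.1 and 38.1 FPKM in the naive libraries, where *Il12rb2* was at 0.509 and 0.768, and its highest value was 60.4. The shared exon bases were 2 for *Il27ra* with *Palm3* and 242 of 8642 for *Il6ra* with the antisense gene *Gm42809*.

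*Il23r*, the chain specific to IL-23, was detected in Th1 and Th17 cells alone among these libraries. It was listed at 0 in both naive and both Th2 libraries, at 1.61 and 1.6 FPKM in Th1 on 113 and 107 implied fragments, and at 28.9 and 30.3 in Th17 on 2127 and 1672. The 4 groups fell into 3 levels with no overlap, naive and Th2 sharing the lowest. The estimation status was OK in all 8 libraries, and of 77 ribosomal protein symbols 1 was at 0 throughout, so values of 0 were not common among genes that every cell uses. No ratio is given against a group at 0. On the log2(FPKM + 1) scale, Th17 exceeded naive and Th2 cells by 4.93 each (SE 0.09, adjusted p = 1.25e-07 and 8.96e-07, limma). Th1 exceeded the same groups by 1.38 each (adjusted p = 1.61e-05 and 5.44e-05). With a pseudocount of 0.1 these differences were 8.21 and 4.09, so their size on the log scale depends on the pseudocount. Th1 was below Th17 by a difference of -3.55 (adjusted p = 4.05e-06), and mean FPKM was 18.4 times as high in Th17. The naive and Th2 libraries are all at 0 and have no spread. The fit pools the spread of all 4 groups with the trend over all genes, so these zeros lower the SE and the p-values of this gene. Genes were tested if their mean FPKM over the 8 libraries reached 1, which *Il23r* did only through Th17.

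*Il6ra*, the chain that binds IL-6, was high in naive cells and fell in every subset, least in Th17. Its FPKM was 52.3 and 73.4 (naive), 4.12 and 4.16 (Th1), 5.82 and 6.09 (Th2), and 17.6 and 22.1 (Th17). The 4 groups did not overlap. Against naive cells the differences were -3.61 (Th1), -3.18 (Th2) and -1.60 (Th17) (SE 0.17 each, adjusted p = 3.57e-06, 5.3e-06 and 0.00017, limma), and naive mean FPKM was 15.2, 10.5 and 3.16 times that of the subset. Th17 cells, the only ones given IL-6, exceeded Th2 by 1.58 (adjusted p = 0.000719) and Th1 cells were below them by -2.01 (adjusted p = 0.000297), ratios of mean FPKM of 3.34 and 4.8. Th1 against Th2 differed by -0.44 with a 95% interval of -0.85 to -0.02, which missed the threshold over all genes (adjusted p = 0.0819) and passed with the replicate block (adjusted p = 0.0305).

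*Il6st*, which encodes gp130, fell in all 3 subsets as well, but most in Th17, where *Il6ra* fell least. Its FPKM was 1.82 and 2.69 in Th17, 13.4 and 15.6 in Th2, 13.5 and 19.6 in Th1, and 31.1 and 42.9 in naive cells. The Th1 and Th2 libraries overlapped, and both Th17 libraries lay below all others on 308 and 341 implied fragments. Relative to naive cells it changed by -1.12 (Th1), -1.28 (Th2) and -3.54 (Th17) (SE 0.23 each, adjusted p = 0.00427, 0.00207 and 1.35e-05, limma). Naive mean FPKM was 2.24, 2.56 and 16.4 times that of the subset. Th17 was below Th2 by a difference of -2.26 (adjusted p = 0.000537) and Th1 exceeded Th17 by 2.42 (adjusted p = 0.00047), ratios of 6.41 and 7.33. Th1 and Th2 were 0.16 apart, with an interval of -0.39 to 0.71.

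*Il27ra*, the IL-27 binding chain, was the most abundant member in naive cells per length and was lower in all 3 subsets. Its FPKM was 114 and 137 for naive cells, 37 and 43.6 in Th1, 44.8 and 57.9 in Th17, and 47.8 and 48.8 in Th2. Every effector library was below both naive libraries, and both Th1 libraries were below every Th2 and Th17 library. Relative to naive cells the change was -1.61 (Th1), -1.35 (Th2) and -1.28 (Th17) (SE 0.16 each, adjusted p = 0.000115, 0.000236 and 0.000343, limma), with naive mean FPKM 3.11, 2.6 and 2.44 times that of the subset. None of the 3 comparisons between subsets passed the threshold, and none of their unadjusted p-values was under 0.05. Their differences were -0.26 for Th1 against Th2, 0.08 for Th17 against Th2 and -0.34 for Th1 against Th17, with an interval of -0.71 to 0.04 for the last, which passed with the replicate block (adjusted p = 0.0413).

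**Figure D2:**
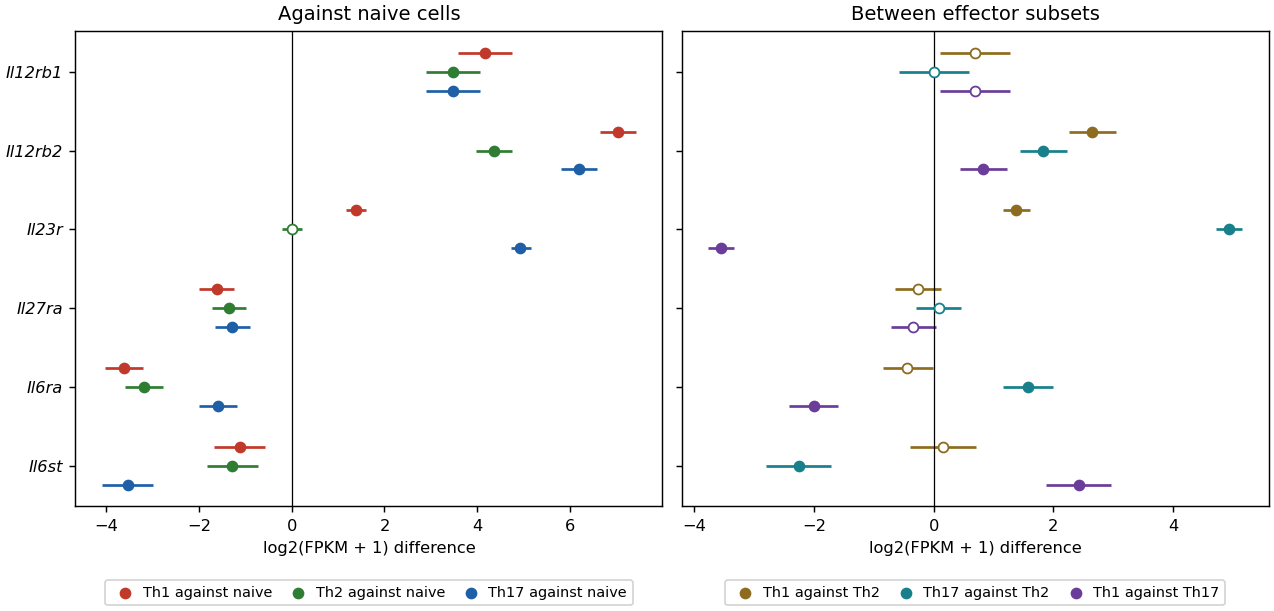
Differences in log2(FPKM + 1) for the 6 genes, against naive cells on the left and between effector subsets on the right, with 95% intervals from limma as bars and filled points where the adjusted p was under 0.05. *Il12rb2* and *Il23r* are filled in all 3 comparisons on the right, *Il6ra* and *Il6st* only in those with Th17, and *Il12rb1* and *Il27ra* in none.

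Set side by side as pairs, the chains changed places between groups. FPKM is scaled by length, so ratios between genes are ratios of transcripts as Cufflinks estimated them, and they are given as a description. *Il12rb2* to *Il12rb1* was 0.236 and 0.188 (naive), 3.11 and 2.88 (Th1), 0.679 and 0.839 (Th2), and 2.86 and 2.6 (Th17). Thus the IL-12-specific chain was in excess over the shared chain in Th1 and Th17 libraries and below it in naive and Th2 libraries. *Il23r* to *Il12rb1* was 0.0259 and 0.0198 in Th1 against 0.75 and 0.613 in Th17. In Th17 cells, which were given IL-23, *Il12rb2* was nonetheless 3.82 and 4.24 times as high as *Il23r*, and in Th1 it was 120 and 145 times as high.

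For the IL-6 receptor, *Il6ra* to *Il6st* was 9.69 and 8.21 in Th17, 0.435 and 0.392 in Th2, 0.306 and 0.213 in Th1, and 1.68 and 1.71 in naive cells. The binding chain was thus below gp130 in Th1 and Th2 libraries and above it in naive and Th17 libraries. *Il27ra* to *Il6st* stayed between 2.23 and 3.65 in the naive, Th1 and Th2 libraries and was 24.6 and 21.5 in Th17. These libraries measure mRNA, and surface protein was not analysed here.

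**Figure D3:**
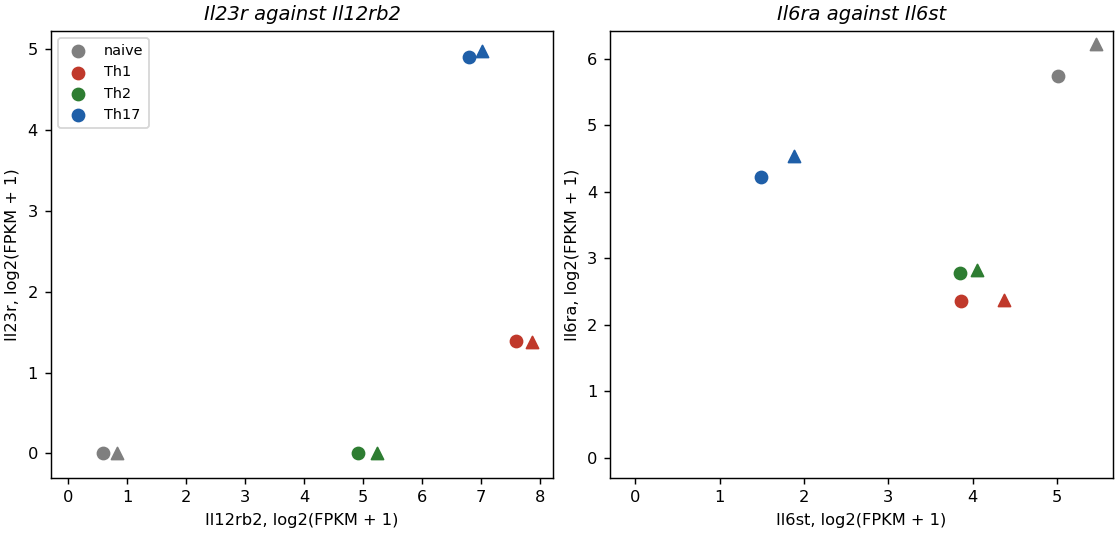
Each library as a point on log2(FPKM + 1) axes, *Il23r* against *Il12rb2* on the left and *Il6ra* against *Il6st* on the right, colored by group with replicate 1 as a circle and replicate 2 as a triangle. Th17 libraries stand alone at high *Il23r* with high *Il12rb2*, and alone at low *Il6st* with intermediate *Il6ra*.

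The summed FPKM of the 6 genes was 200 and 258 for naive cells, 311 and 383 in Th1, 242 and 291 in Th17, and 139 and 151 in Th2. *Il27ra* made up 56.9% and 53.1% of it in naive cells and *Il6ra* another 26.2% and 28.4%. In Th1, *Il12rb2* made up 62% and 60.9%, and in Th17 45.6% and 44.2%. Th2 cells had *Il27ra* at 34.4% and 32.2%, *Il12rb1* at 30.8% and 29.1%, and *Il12rb2* at 21% and 24.4%.

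**Figure D4:**
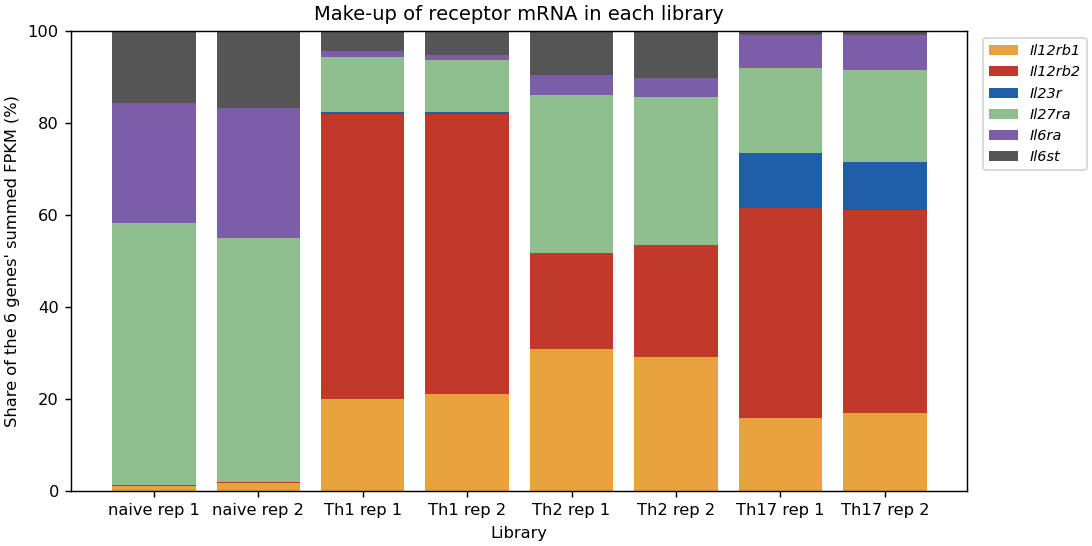
Stacked bars give the percentage of the summed FPKM of the 6 genes that each gene contributes, one bar per library. *Il27ra*, *Il6ra* and *Il6st* fill nearly all of the naive bars, *Il12rb2* the largest block of the Th1 and Th17 bars, and *Il23r* is visible in Th17 at 11.9% and 10.4%.

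Over the 8 libraries, which share the 4 groups and are not 8 independent conditions, *Il12rb1* and *Il12rb2* had a Pearson's r of 0.96 on log2(FPKM + 1), *Il27ra* and *Il6ra* of 0.91, and *Il12rb1* and *Il27ra* of -0.95. *Il23r* and *Il6st* had an r of -0.92, and *Il6ra* and *Il6st*, partners in the IL-6 receptor, only 0.19. Genes most alike in pattern were sought among 5401 genes whose group means span at least 1 on this scale. For *Il12rb2* they were *B4galnt4* (r = 0.9980), *Emp1* (0.9974) and *Kctd17* (0.9974). For *Il23r* they were *Marveld1* (0.9984), *Gnb4* (0.9970) and *Il23a* (0.9965), the last encoding the p19 subunit of IL-23. For *Il12rb1* they were *4930422G04Rik* (0.9997), *Bak1* (0.9971) and *Tgfb1* (0.9970), for *Il27ra* *Ldb1* (0.9952), *Aldh4a1* (0.9945) and *Lphn1* (0.9945), for *Il6ra* *Znrf1* (0.9963), *Neu1* (0.9956) and *Rpusd3* (0.9921), and for *Il6st* *Ubash3a* (0.9906), *Fam46c* (0.9873) and *Rasgrp1* (0.9834). With 4 groups to follow, such values arise readily.

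Of the IL-12 family cytokine subunits, *Il12a*, *Il12b* and *Il27* were under the filter of a mean FPKM of 1, and *Il23a* and *Ebi3* were tested. Both were called higher than in naive cells in Th1 and Th17, and *Ebi3* alone in Th2. Of all genes, 33.8%, 37.5% and 31.8% were called higher in Th1, Th17 and Th2. *Ebi3*, the subunit shared by IL-27 and IL-35, was at 0.587 and 0.408 FPKM in naive cells and between 34.7 and 47.4 in all effector libraries, with differences of 4.69, 4.88 and 4.63 in Th1, Th2 and Th17 (adjusted p = 3.51e-07, 2.34e-07 and 3e-07, limma). *Il23a* was at 4.92 and 4.3 in Th17 and at most 0.873 elsewhere, a difference of 2.38 from naive cells and 2.47 from Th2 (adjusted p = 4.49e-06 and 2.63e-05, limma). It reached the filter only through Th17, so these p-values are no independent support for a higher level there.

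Of 8 IL-6 family cytokines 4 were tested, and in each subset *Lif* and *Osm* were called higher than in naive cells and *Clcf1* and *Cntf* lower. Of all genes, 67.3%, 70.5% and 67.3% were called either way in Th1, Th2 and Th17, so nothing is drawn from this count. *Lif*, a ligand of gp130 with LIFR, was at 0.231 and 0.354 FPKM (naive), 58.7 and 47 (Th1), 341 and 313 (Th2), and 172 and 170 (Th17). *Osm* was at 16.2 and 16.7 in naive cells and between 57.7 and 88.8 in effector libraries. *Clcf1* was lower by differences of -2.40, -2.34 and -2.59 in Th1, Th2 and Th17 (adjusted p = 7.15e-06, 6.79e-06 and 4.4e-06, limma). *Il6* itself was at no more than 0.422 in any library. The receptor chains for these ligands, *Lifr*, *Osmr*, *Cntfr* and *Il31ra*, were all under the filter, at no more than 0.321 in any library. The only other chain tested, *Il11ra1*, the IL-11 binding chain that pairs with gp130, was lower in all 3 subsets, by -1.84, -0.94 and -0.85 (adjusted p = 2.67e-05, 0.000657 and 0.00115).

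Kinases and STATs used by these receptors were called in both directions. Of 5 tested, 1 was called higher and 2 lower in Th1 than in naive cells, 2 and 3 for Th2 cells, and 2 and 1 for Th17 cells, with median differences of -0.13, -0.70 and -0.19 where all genes had -0.01, -0.11 and 0.08. Between 29.8% and 38.7% of all genes were called in each direction in these comparisons, so that nothing about the list is drawn from these counts. *Jak1*, the kinase of gp130, differed from naive cells by -1.18, -1.55 and -1.47 in Th1, Th2 and Th17 (adjusted p = 0.000128, 2.71e-05 and 3.71e-05, limma). *Stat4*, the main STAT of the IL-12 receptor, was at 25.1 and 28.4 FPKM in Th17, 14.6 and 16.4 in Th2, 40.1 and 50 in Th1, and 33.1 and 34.1 in naive cells. Both Th1 libraries were the highest and both Th2 libraries the lowest. Th1 exceeded Th2 by 1.48 (adjusted p = 0.00019) and Th17 by 0.72 (adjusted p = 0.00777), and Th17 exceeded Th2 by 0.75 (adjusted p = 0.00446).

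*Stat3*, the main STAT of IL-6 and IL-23, was higher than in naive cells in both Th2 and Th17. Its FPKM was 42.8 and 59.7 for naive cells, 45.6 and 52.7 in Th1, 79.5 and 96.5 in Th17, and 104 and 119 in Th2. The difference from naive cells was 1.12 in Th2 (adjusted p = 0.00133, limma) and 0.78 in Th17 (adjusted p = 0.00781). Th17 against Th2 gave -0.34, with an interval of -0.78 to 0.10 (adjusted p = 0.18), which passed with the replicate block (adjusted p = 0.024). *Jak2* had a like order, at 63.9 and 80.8 in Th2, 44.6 and 51.5 in Th17, and between 20.6 and 24.6 in naive and Th1 libraries. It was higher than in naive cells by 1.61 in Th2 (adjusted p = 5.42e-05) and 1.03 in Th17 (adjusted p = 0.000561).

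Of 8 negative regulators and shedding proteases, 4 were called higher and 2 lower than in naive cells in Th1, 3 and 3 for Th2 cells, and 2 and 2 for Th17 cells, with medians of 0.10, -0.10 and 0.01. Against the same shares of all genes, nothing about this list is drawn from its counts either. *Socs1* rose in all 3 subsets, by 1.87, 2.43 and 2.16 (adjusted p = 0.000129, 2.96e-05 and 5.66e-05, limma). *Socs3*, the feedback inhibitor that binds gp130, was at 78.2 and 75.2 FPKM (naive), 54.2 and 57.9 (Th1), 197 and 177 (Th2), and 72.7 and 82.4 (Th17). Th2 exceeded naive cells by 1.27 (adjusted p = 4.58e-05), whereas the Th17 and naive libraries overlapped. *Adam17*, a protease that releases IL-6Rα from the cell surface, was at 15.4 and 16.2 in naive cells and between 9.55 and 13.7 in effector libraries.

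**Figure D5:**
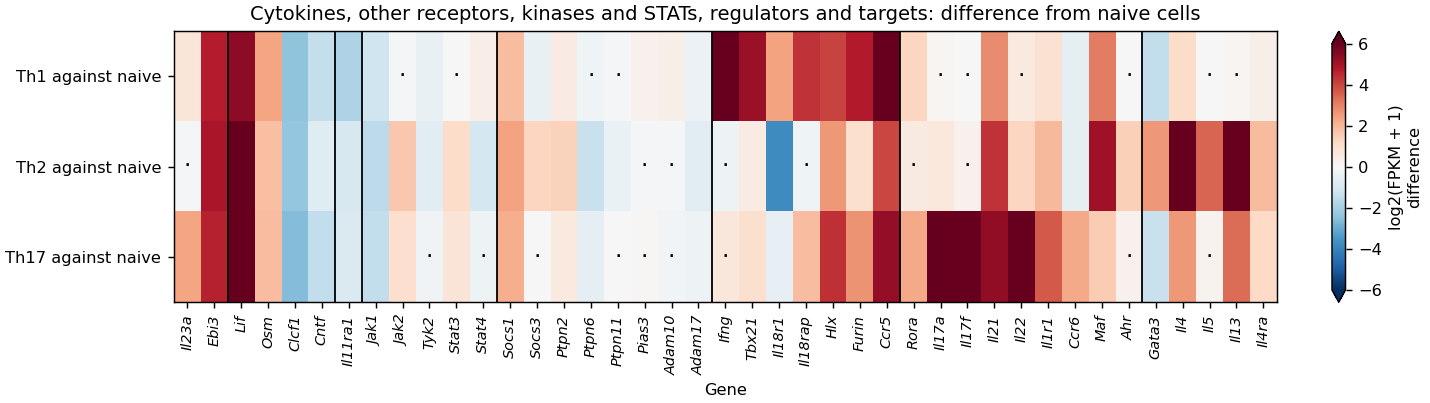
Color gives the log2(FPKM + 1) difference from naive cells (scale from -6 to 6) for each tested gene of the cytokine, receptor, kinase and STAT, regulator, IL-12 target, IL-6 and IL-23 target and Th2 lists, separated by vertical lines in that order, with a dot where the adjusted p was not under 0.05. The first target block is dark in Th1, the second in Th17 and the Th2 genes in Th2, while the kinases and regulators are pale with both signs.

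Genes known to respond to IL-12 and STAT4 were higher in Th1 than in Th2, and all but 1 higher than in Th17. Of 8 listed, 7 were tested, and all 7 were higher in Th1 than in naive cells and than in Th2, with medians of 4.77 and 4.62, where 33.8% and 27.4% of all genes were called higher. Against Th17, 6 were higher in Th1 and 1 lower, with a median of 2.48, where 9.17% and 16% of all genes were called. The exception was *Hlx*, a homeobox transcription factor, at 15.4 and 16.6 FPKM in Th1 and 19.9 and 20.8 in Th17, a difference of -0.33 (adjusted p = 0.0347, limma). That call was lost without any one Th1 or Th17 library, the adjusted p then being 0.0924 to 0.19, and with a pseudocount of 0.1, median scaling, quantile normalization or a fit of only both groups (0.0685 to 0.103). In Th17, 5 of the 7 were higher than in naive cells and 1 lower, against 37.5% and 29.8% of all genes, and in Th2 4 and 1, against 31.8% and 38.7%. *Il18r1*, a subunit of the IL-18 receptor, was at 122 and 137 FPKM in Th1, 16.4 and 16.6 in Th17, and 0.666 and 0.935 in Th2, against 23.4 and 23.6 in naive cells. *Tbx21*, the Th1 transcription factor, was at 45.1 and 50.7 in Th1 and between 0.26 and 1.66 elsewhere. Th17 cells, with *Il12rb2* at 110 and 129, thus had *Tbx21* at 1.62 and 1.66 and *Ifng* at 0.433 and 2.19, where Th1 had *Ifng* at 802 and 614.

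Of 9 genes known to respond to IL-6, IL-23 and STAT3, 8 were higher in Th17 than in naive cells and 0 lower (1 more, *Ahr*, was not called), with a median of 3.67, where 37.5% of all genes were called higher and 29.8% lower. In Th2, 6 were higher and 1 lower, against 31.8% and 38.7%, and in Th1 4 and 1, against 33.8% and 33.5%, with medians of 1.29 and 0.58. Some of these calls are at low values. In Th2, *Il17a* was higher at 0.711 and 0.446 FPKM and *Il22* at 1.21 and 1.71, while *Ccr6* was lower at 0.17 and 0.163. In Th1 against Th17, 6 were lower and 1 higher, against 16% and 9.17%. The 1 was *Maf*, at 27.5 and 20.5 FPKM in Th1 and 8.61 and 6.54 in Th17 (difference 1.54, adjusted p = 0.00081, limma). *Il17a*, a defining Th17 cytokine, was at 347 and 335 FPKM in Th17 and at most 0.711 elsewhere, whereas *Il23r* was also at 1.61 and 1.6 in Th1. Against Th2, 7 were higher in Th17 and 2 were lower, where 31.7% and 12% of all genes were. The 2 were *Maf*, lower by a difference of -3.56 (adjusted p = 1.94e-05, limma), and *Ahr*, by -1.17 (adjusted p = 0.00681), both transcription factors. Th2 lineage genes were higher in Th2 than in Th1 and than in Th17 for 5 of 5, where 16.9% and 12% of all genes were. *Gata3* was at 127 and 133 in Th2 and at 5.46 to 9.19 in the other subsets. The lists were chosen by textbook role with earlier results of these libraries known, so their directions are no independent evidence of the labels. *Il17a*, *Il17f*, *Il22* and *Ccr6* also reached the filter of a mean FPKM of 1 only through Th17. *Ifng* and *Tbx21* did so only through Th1, and *Il5* only through Th2. Their calls as higher in those groups are therefore not used as support.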

How the data were processed

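RNA of 8 libraries, 2 in each of the 4 groups given by the sample labels, was measured by sequencing. The authors deposited FPKM per gene with a confidence interval, made per their processing notes with Bowtie 0.12.8, TopHat 1.3.2 and Cufflinks 2.0.2 on mm10, while the gene annotation is not given in the sources used here. Rows of one symbol were summed. The log2(FPKM + 1) values, which understate changes of low genes, were fitted with limma 3.58.1 (R 4.3.3, lmFit and eBayes with trend, two-sided) over all 8 libraries keeping genes whose mean FPKM reached 1, adjusted by the Benjamini-Hochberg method. The fit was run on simulated data with independent libraries and a small part of the genes changed. These libraries differ from that in both respects, so nothing about the calls is drawn from it. Implied fragments were taken from the interval widths and cover counting error only. Tables used Python 3.11.15 with pandas 2.3.3, numpy 2.4.6 and matplotlib 3.10.9.

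The methods name a t-test or analysis of variance for the study in general and no test for the RNA sequencing in particular. The members and gene lists were chosen with earlier results of these data known. Genes named are the members, genes of the pathway and marker lists, and for each member the 3 genes most alike in pattern. *Serbp1*, *Palm3* and *Gm42809* were added because their exons overlap members. Replicate numbers come from the labels. Replicate 2 minus replicate 1, gene by gene, correlated at 0.138 to 0.294 in each of 6 pairings of 2 groups, so a fit with a replicate block is quoted wherever a member's call changes. Alternatives were a pseudocount of 0.1, no trend, no filter, quantile normalization, median scaling, fits limited to 2 groups, the replicate block, the highest row per symbol, and each library left out. Some genes of the pathway lists are not reported here and were left out of the list counts. Other experiments of the study were not analysed here.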

Additional observations from a re-analysis of the deposited data

Results flagged for a closer look

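The change from naive cells differed between effector subsets for 4 of the 6 genes, by the limma test of the difference itself, which shares the naive libraries and so equals the direct comparison of the subsets. Of all genes tested, 44.3% were called in Th1 against Th2, 43.6% in Th17 against Th2 and 25.1% in Th1 against Th17. With the replicate block, *Il12rb1* (adjusted p = 0.00974 and 0.0161, limma) and *Il27ra* (0.0413) passed as well, for 6 of 6. That fit called 33.1% of all genes higher and 20.3% lower in Th1 against Th2. The shares were 38.3% and 15% in Th17 against Th2, and 12.3% and 20.8% in Th1 against Th17. A gene was counted if called in any of these comparisons, and the like share of all genes was not computed. Nothing is therefore drawn from either count. For *Il12rb2* the difference was 2.65 for Th1 against Th2, 1.83 for Th17 against Th2 and 0.83 for Th1 against Th17. For *Il23r* it was 1.38, 4.93 and -3.55 in the same order. *Il6ra* differed by 1.58 for Th17 against Th2 and by -2.01 for Th1 against Th17, and *Il6st* by -2.26 and 2.42, opposite in sign to *Il6ra* in both.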

How the results depend on the processing

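All calls of members against naive cells held, with the same sign, under the 8 alternatives and with each library left out. Between subsets, Th1 against Th2 had 4 members called, in place of 2, with the fit of only the 2 groups, with the replicate block, and without either naive library (2 to 4 over all libraries left out in turn). *Il12rb1* in Th1 against Th2 was 0.69 and passed with the 2-group fit (adjusted p = 0.0242) and the block (0.00974), and ranged from 0.50 to 0.88 with a library left out. *Il12rb1* in Th1 against Th17 passed at 0.68 with quantile normalization (0.0438) and at 0.69 with the block (0.0161), range 0.50 to 0.87. *Il6ra* in Th1 against Th2 passed at -0.52 with median scaling, -0.54 with quantile normalization, and -0.44 with the 2-group fit and the block, range -0.46 to -0.41. *Il27ra* in Th1 against Th17 passed at -0.34 with the block. The replicate block changed no other call of a member. In the pathway lists it added 13 calls and removed 0, among them *Stat3* in Th17 against Th2, *Rora* in Th2 against naive cells, *Ptpn6* and *Il22* in Th1 against naive cells and *Stat4* in Th17 against naive cells (0.014). Uncalled differences changed sign for Th17 against Th2, where median scaling and quantile normalization gave -0.17 and -0.13 for *Il12rb1* and -0.10 and -0.06 for *Il27ra*, with ranges of -0.17 to 0.18 and -0.10 to 0.26 when libraries were left out, and for *Il6st* in Th1 against Th2, range -0.09 to 0.42. *Il12rb2* in Th1 against Th17 ranged from 0.69 to 0.96. *Stat4* in Th1 against Th17 was 0.64 without Th17 replicate 1 (adjusted p = 0.0543) and *Stat3* in Th17 against naive cells 0.64 without Th17 replicate 2 (0.0522). With single libraries left out, 3097 to 4959 genes were called for Th1 against Th2, 2715 to 4914 for Th17 against Th2 and 1546 to 2789 for Th1 against Th17, where all libraries gave 4961, 4885 and 2815. Counts fell by more than 1.5 times without Th1 or Th2 replicate 2 (3097 and 3162), without Th2 or Th17 replicate 2 (2991 and 2715), and without any Th1 or Th17 library (1546 to 1705), in that order of comparisons. A group left with 1 library is assumed to vary like the others. The cause of these shifts was not tested.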

Other observations

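Replicate 2 had the higher FPKM in 21 of the 22 pairs of libraries in which a member was above 0, or 95.5%, and in 15 of them the deposited intervals did not overlap. Those intervals cover counting error only, and the like count over all genes was not computed, so nothing is drawn from it. Over all genes tested, replicate 2 was higher for 62.5% in Th17, 60.5% in Th1, 50.8% in naive cells and 46.7% in Th2. The exception was *Il23r* in Th1, at 1.61 and 1.6. The members were noticed to share this after their values were seen, and its source was not tested.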
